A study of Homo sapiens with 4 samples.

Results

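Cytosolic ribosomal proteins build the ribosomes that translate nuclear-encoded mRNAs. They were chosen by name alone, as genes called RPL or RPS with a number, the stalk genes RPLP0, RPLP1 and RPLP2, and RPSA. The arrays carried 75 such genes of 43305 gene names in all, 45 for the large subunit (stalk included) and 30 for the small subunit. RPL10 and RPSA were not among the names and were not analysed here. All 75 symbols were found in the RefSeq gene table of GRCh38.p14.

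Gene expression had been measured in HN4 and HN30, established human lines of head and neck squamous cell carcinoma (HNSCC), and in their resistant derivatives, HN4/DDP and HN30/DDP. The derivatives had been selected by raising the dose of cisplatin, which crosslinks DNA, little by little. By the labels they were kept in 20 μM cisplatin for 48 h, and no drug is given for the parental lines, so resistance and recent exposure cannot be told apart. Each condition was 1 culture on 1 one-colour Agilent array, so no comparison of a resistant line with its parent has a replicate check.

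A ribosome holds most of its proteins as single copies, and their genes are among the most strongly expressed in a growing cell. Most of their mRNAs start with a cytosine followed by a run of pyrimidines, the 5' terminal oligopyrimidine (TOP) tract, through which the kinase mTOR and the repressor LARP1 control their translation. Production of new ribosomes also needs RNA polymerase I, which makes ribosomal RNA, and nucleolar assembly factors. Ribosomal proteins that are not built into ribosomes, RPL5 and RPL11 above all, bind the ubiquitin ligase MDM2.

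A level here is the log2 intensity of a gene's probe minus the 75th percentile of its array, and a difference is a level on the resistant array minus that on its parental array. Where a gene had several probes, 1 was used, the one with the highest mean over the arrays. Levels are given below for the HN4 pair and the HN30 pair of arrays, the parental array first. Levels of different probes were not read as relative amounts of their mRNAs, because brightness also depends on the probe. A gene was counted as higher or lower when the difference passed 0.5 (1.41-fold) and the probe was well above background on the higher array. As the only error of a single array, the deposited error of each spot was turned into an SD, called the scanner SD below, which was 0.204 (log2) for the median member in either comparison. RPL30 was spotted 10 times per array, and those spots differed with an SD of only 0.01 to 0.02 (log2). These errors cover the scan and not the culture. Because each array was scaled to itself, RNA per cell was not measured, and fewer cells of a kind and less RNA per cell cannot be told apart.

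Between 55.3% and 63.6% of the spots on an array were well above background, with the highest share on HN30/DDP. No spot was saturated. Of the 9 squamous epithelial markers, 9 were well above background on HN4, HN4/DDP and HN30 and 8 on HN30/DDP, where KRT6A was not. Their summed signal was 253 and 270 in the HN4 pair and 255 and 157 in the HN30 pair. The summed signals of the 3 leukocyte and 4 endothelial markers lay between 0.14 and 0.33. That of the 6 fibroblast markers, of which 2 were well above background on each array, was higher in the resistant lines, at 0.405 and 1.06 in the HN4 pair and 0.228 and 0.786 in the HN30 pair, and its part in the results was not tested. Scaling choices mattered most in HN30/DDP, where the median difference of all genes tested moved from 0.05 to -0.36 when arrays were set to their median and to 0.32 when the percentile was taken over probes measured on every array.

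The mRNAs of the cytosolic ribosomal proteins differed little between resistant and parental cells relative to the 75th percentile of the arrays. Their median difference was -0.01 in HN4/DDP, with the middle of the genes between -0.09 and 0.06, and -0.08 in HN30/DDP, with the middle between -0.17 and -0.003. In HN4/DDP 1 of 75 was higher, RPS3, and 1 was lower, RPL27A. Averaging the probes of each gene gave 6 lower members in HN4/DDP, and the least bright RefSeq probes gave 4. In HN30/DDP 0 of 75 were higher and 3 were lower, namely RPL27A, RPS26 and RPL6. The last count depended on the scaling and the probe. With arrays set to their median, which put the median of all genes at -0.36 and that of the members at -0.49, 36 of the 75 passed the threshold downwards, and under the other scalings 2 or 3 did. With the probes of each gene averaged 8 did. Over all genes tested, 19.1% were higher and 22.3% lower in HN4/DDP, and 32.0% were higher and 26.5% lower in HN30/DDP. Among the 106 other genes of like brightness, whose mean level lay within the 10th to 90th percentile of the members, 0.943% were higher and 10.4% lower in HN4/DDP, and 2.83% and 21.7% in HN30/DDP. The members' share of lower genes was 1.33% in HN4/DDP and 4.0% in HN30/DDP. The difference stayed below its scanner SD for 64 members in HN4/DDP and for 59 in HN30/DDP.

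The median of the like-bright genes was -0.08 in HN4/DDP and -0.12 in HN30/DDP, so that the members' median was close to theirs. In HN30/DDP this depended on the probe, since with the mean of all probes the members were at -0.07 and the like-bright genes at -0.53, and with the least bright RefSeq probe at -0.08 and -0.29. More of the members lay close to 0. Within 0.25 of 0 lay 90.7% of the members against 71.7% of the like-bright genes in HN4/DDP, and 88.0% against 59.4% in HN30/DDP. The SD over the members was 0.199 against 0.289 in HN4/DDP, while in HN30/DDP it was 0.535 against 0.484 with RPL27A and 0.237 without it. Large and small subunit genes did not part, with medians of -0.01 and -0.01 in HN4/DDP and of -0.08 and -0.10 in HN30/DDP. Of the 75 genes, 38 were below 0 in both lines, 12 were above 0 in both and 25 had opposite signs. The sign of the HN30/DDP median depended on the scaling, at -0.49 with median scaling and 0.20 with the trend against brightness taken off.

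**Figure D1:**
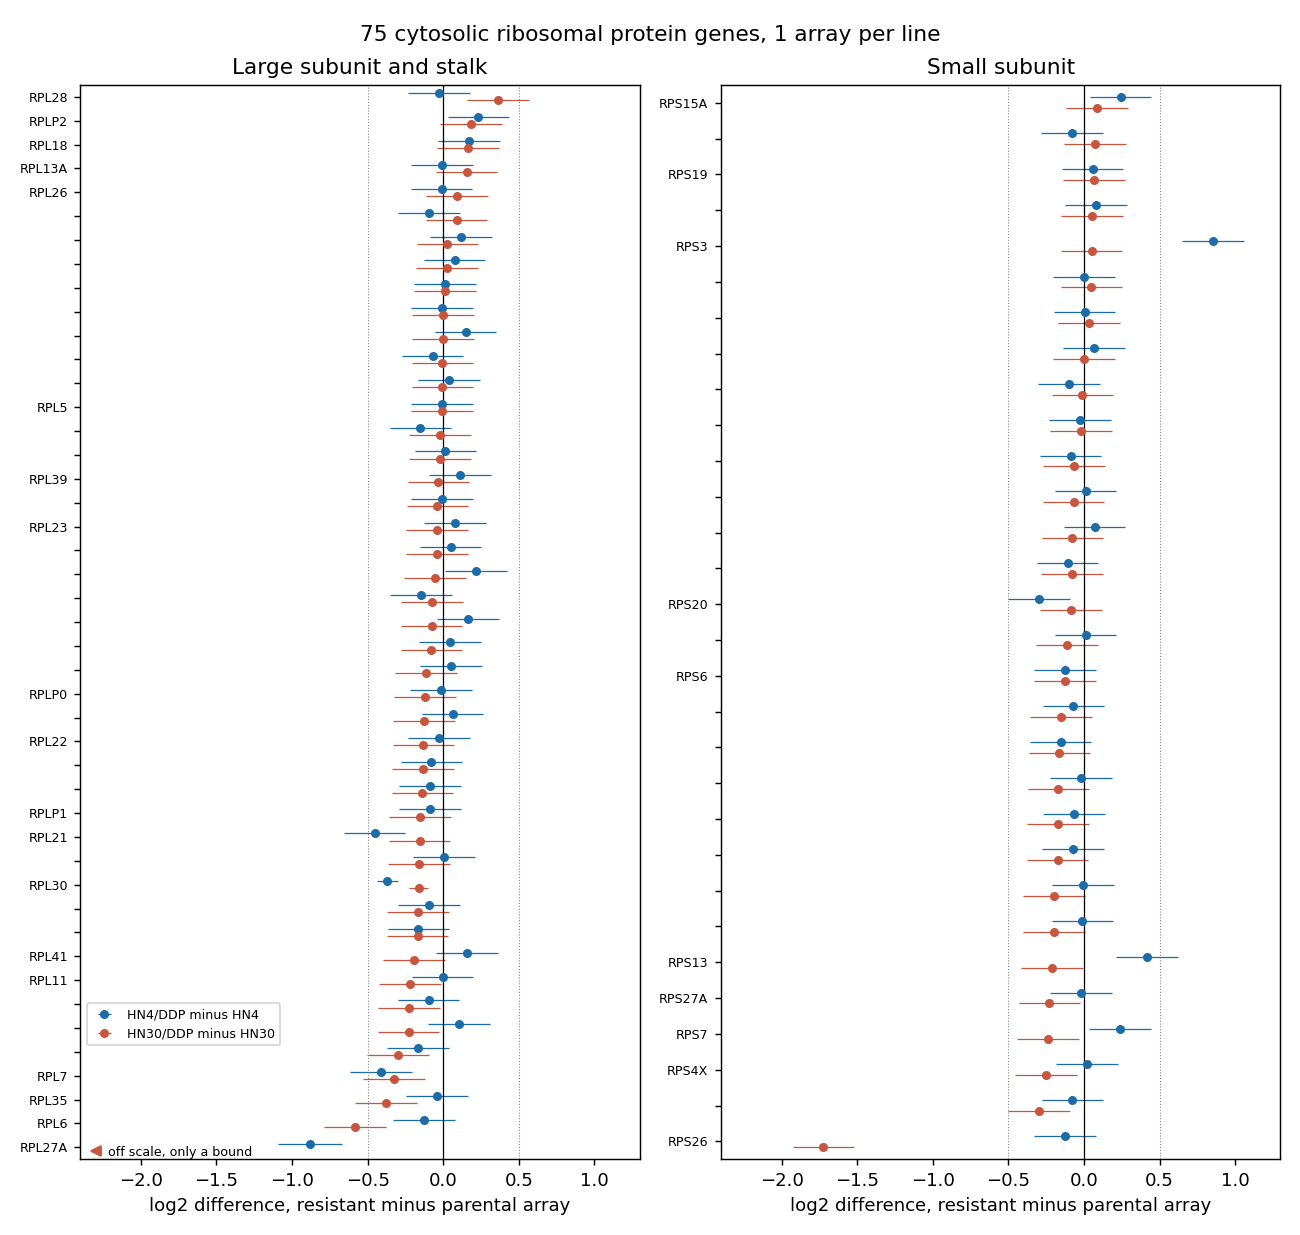
Log2 difference (resistant minus parental array, horizontal axis) of each of the 75 genes, with HN4/DDP in blue and HN30/DDP in red and with names for the genes singled out. Bars are the scanner SD, dotted lines mark the threshold of 0.5, and RPL27A in HN30/DDP is off the scale because its resistant spot was not well above background and gives only a bound; most points lie within a bar's length of 0, and RPS26, RPL6, RPL27A and RPS3 stand apart.

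RPL27A was the only member lower in both resistant lines, where 7.99% of all genes were, and 0 members were higher in both, where 9.95% were. Its protein belongs to the large subunit. Its only probe (chr11:8711092-8711151, hg19) was dim, with levels of -1.42 and -2.3 in the HN4 pair and of -1.12 and -5.39 in the HN30 pair. Its mean level of -2.56 lay far below the main probes of all other members, of which the next was RPL22 at 6.82. Whether this probe reports the main RPL27A mRNA was not tested. The resistant array was lower than the parental one in either line, and on HN30/DDP the spot was not well above background. With the lowest well-measured signal of that array as the bound, RPL27A was at least 13.9-fold lower in HN30/DDP than in HN30. That bound holds for the scaling to the 75th percentile, and the measured difference, -4.27 there, shrank to -1.96 with the normexp background correction and to -3.10 with a pseudocount of 16. Without this gene the members' medians were -0.01 in HN4/DDP and -0.08 in HN30/DDP, as with it, and there were 0 lower genes in HN4/DDP and 2 in HN30/DDP.

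Both lines were also fitted together with limma, comparing resistant with parental arrays while blocking on the line. This fit had 1 residual degree of freedom, with each line counted as 1 replicate. Adjusted p under 0.05 was reached by 0 of the 75 members and by 0.0% of the 29523 genes tested. At an unadjusted p under 0.05 the fit called 1 member, RPL27A (difference -2.58 ± 0.89 (SE), adjusted p = 0.575 by limma with Benjamini-Hochberg adjustment), against 8.42% of all genes. That call rests on the HN30/DDP spot that was not well above background, so its difference is not a measured size. With so few arrays a count of 0 leaves changes of unknown size possible. In 3 other fits, without the trend, after quantile normalization and without a filter on dim genes, 0 members passed the adjusted threshold and 0, 2 and 0 the unadjusted one.

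RPS26, a small subunit protein at the mRNA exit channel and a gene mutated in Diamond-Blackfan anaemia, was the lowest well-measured member in HN30/DDP. Its levels were 8.82 and 8.70 in the HN4 pair and 9.04 and 7.32 in the HN30 pair. HN30/DDP alone was low, and the other arrays lay close together. The difference was -1.72 in HN30/DDP, a 3.3-fold lower signal, and -0.12 in HN4/DDP. The array holds 3 probes named RPS26, and their first 30 bases are shown because all of them were lower in HN30/DDP although they lie at different places on chromosome 12 (hg19).
RPS26 probe at chr12:56437923-56437982: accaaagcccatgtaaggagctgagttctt
RPS26 probe at chr12:56437160-56437219: caagctgtgtgtgaagctacattactgtgt
RPS26 probe at chr12:56435739-56435798: cactttgttccatggataaataaacactag
In that order the differences in HN30/DDP were -1.72, -2.05 and -1.86, and in HN4/DDP they were -0.12, -0.06 and -1.01. The first 2 probes also list a non-coding RefSeq transcript among their targets, the third does not, and the third is far dimmer, with a mean level of -1.42. The genes around RPS26 did not move with it. Within 5 Mb on either side, the median difference of 204 other genes in HN30/DDP was -0.11.

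RPL6, a large subunit protein, was lower in HN30/DDP on both of its probes. The brighter probe gave 9.43 and 9.30 in the HN4 pair and 9.57 and 8.99 in the HN30 pair, a difference of -0.58 in HN30/DDP against -0.13 in HN4/DDP. The dimmer probe gave 7.79, 7.71, 8.20 and 7.25 in the same order, a difference of -0.95. The brighter RPL6 probe missed the threshold under 4 of the other scalings: -0.32 with the percentile over probes measured on every array, -0.31 with the brightness trend taken off, and -0.47 after quantile normalization and in the deposited log2 values. RPS26 passed it under every setting tried, from -2.14 to -1.38. RPL35, the member just inside the threshold in HN30/DDP, differed by -0.38.

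RPS3, a small subunit protein at the mRNA entry channel that also acts in DNA repair, was the single member higher in HN4/DDP. Its level was 6.47 and 7.32 in the HN4 pair and 6.76 and 6.82 in the HN30 pair. HN4/DDP was the highest array, and HN30 and HN30/DDP lay close together. The difference was 0.85, a 1.81-fold higher signal, in HN4/DDP and 0.05 in HN30/DDP. The first value stayed between 0.85 and 1.1 under the settings tried, and the second ran from -0.36 to 0.52. Only 1 probe on the arrays bears its name. RPS13, the next highest, also a small subunit protein, differed by 0.42.

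RPL21, a large subunit protein, was the lowest in HN4/DDP of the members that did not pass the threshold. Its levels were 9.19 and 8.74 in the HN4 pair and 8.94 and 8.78 in the HN30 pair. The HN4 array was the high one. Its difference was -0.45 in HN4/DDP and -0.16 in HN30/DDP. All 9 of its probes were lower in HN4/DDP, by -0.85 to -0.42, and 7 of them passed the threshold that the brightest probe missed. The 9 probes are not independent, since 8 of them also list non-coding RefSeq transcripts among their targets and 1 is placed on another chromosome. RPL7, with 3 probes from -0.61 to -0.41 in HN4/DDP, was also lower there on each of them. In HN30/DDP its probes ran from -0.32 to -0.23.

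RPS13 and RPS7 went opposite ways in the lines. RPS13 had levels of 8.95 and 9.37 in the HN4 pair and 9.26 and 9.05 in the HN30 pair. RPS7, a small subunit protein that also binds MDM2, had 8.87 and 9.11, and 9.10 and 8.86. RPS13 differed by 0.42 in HN4/DDP against -0.21 in HN30/DDP, and RPS7 by 0.24 against -0.24. The second probe of each gene gave the same signs, at 0.40 and -0.23 for RPS13 and at 0.42 and -0.35 for RPS7. The values in HN30/DDP turn positive, 0.06 to 0.07 for RPS13 and 0.03 to 0.06 for RPS7, with the percentile over probes measured on every array and with the brightness trend taken off.

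**Figure D2:**
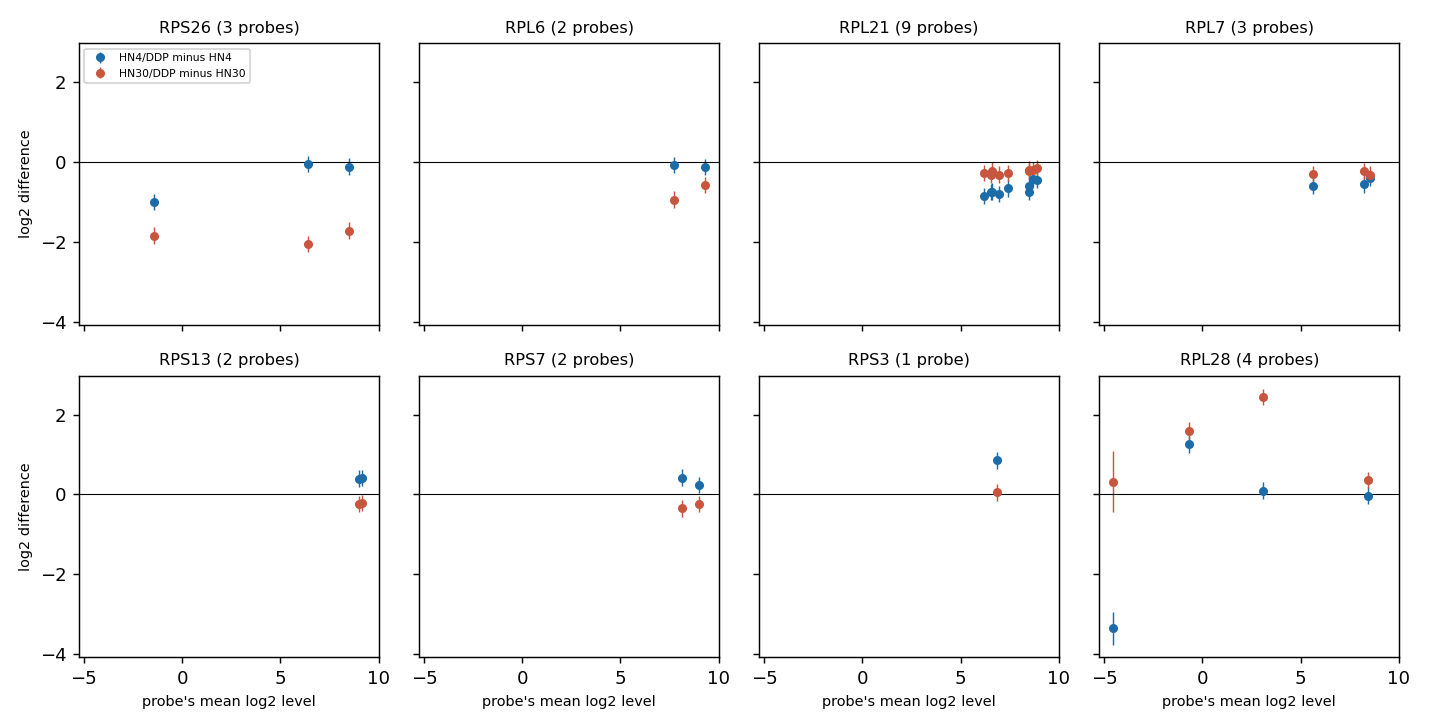
Log2 difference of every probe (vertical axis) against the probe's mean log2 level over the arrays (horizontal axis) for 8 genes, HN4/DDP in blue and HN30/DDP in red, bars the scanner SD. The 3 RPS26 probes lie between -2.05 and -1.72 in HN30/DDP, the 9 RPL21 probes between -0.85 and -0.42 in HN4/DDP, and the dim RPL28 probes scatter.

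Dimmer probes of a gene tended to show larger differences. For 37 genes with several RefSeq probes within 5 log2 units of the brightest, the dimmest probe had the larger difference in 25 in HN4/DDP and in 24 in HN30/DDP. The median size of the difference was 0.07 on the brightest and 0.11 on the dimmest probe in HN4/DDP, and 0.09 and 0.11 in HN30/DDP. Probes of a gene nevertheless differed by little, with a median range of 0.07 in HN4/DDP and 0.08 in HN30/DDP. Using the least bright of these probes for each gene left the medians at -0.01 and -0.08 and gave 4 lower members in place of 1 in HN4/DDP. RPL22, which also has a role in T cell development, was the gene whose probes differed most, with -0.03 on the bright and -0.60 on the dim probe in HN4/DDP. Whether the bright probes compress differences was not tested.

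In HN30/DDP the ribosomal protein mRNAs stood apart from most other genes of ribosome production, which were lower. Of the 61 ribosome biogenesis factors measured, 59 were lower in HN30/DDP and 0 higher, with a median of -1.36. NOP56, a core protein of the nucleolar particles that methylate ribosomal RNA, had levels of 7.18 in HN30 and 4.44 in HN30/DDP, while HN4 and HN4/DDP had 6.39 and 6.05. NCL, which encodes nucleolin, had 7.67 and 5.34 in the HN30 pair, and in the HN4 pair 7.23 and 5.88. Of the 20 genes of RNA polymerase I and its factors, 16 were lower and 1 higher in HN30/DDP, with a median of -0.92. Of the 77 mitochondrial ribosomal proteins, 70 were lower and 2 higher, with a median of -1.08. Over the settings tried the 3 medians ran from -1.77 to -0.94, from -1.33 to -0.58 and from -1.50 to -0.71. Genes of like brightness to each list had medians of -0.37, -0.42 and -0.47 in HN30/DDP, with 43.8%, 45.7% and 48.7% of them lower. In HN4/DDP the same lists had medians of 0.05, -0.17 and -0.02, with 6, 7 and 9 genes lower and 5, 1 and 4 higher. As shares, 9.84%, 35.0% and 11.7% were lower, where 19.9%, 19.6% and 19.3% of their like-bright genes were. Of those like-bright genes 13.95%, 13.07% and 11.49% were higher.

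Over 9 settings compared, the median of the cytosolic ribosomal proteins in HN30/DDP lay above that of the biogenesis factors by 1.07 to 1.28, above that of the mitochondrial ribosomal proteins by 0.78 to 1.0 and above that of the RNA polymerase I list by 0.67 to 0.84. In HN4/DDP the same gaps ran from -0.09 to 0.01, from 0.01 to 0.06 and from 0.14 to 0.22. The probes of the biogenesis, polymerase and mitochondrial genes were dimmer, and 0 of the members' main probes lay within the 10th to 90th percentile of their levels. The comparison was therefore also made over RefSeq probes between mean levels of 3.5 and 7.5. There lay 25 probes of 17 ribosomal protein genes, dimmer probes for the most part but also the main probes of RPS3 and RPL22, and in HN30/DDP 2 of them were lower, 1 each of RPS26 and RPL23A, and 0 higher, with a median of -0.09. In that range 55.5% of all RefSeq probes were lower in HN30/DDP and 9.85% higher, with a median of -0.61. Also in that range, 52 of 58 mitochondrial ribosomal proteins and 25 of 25 biogenesis factors were lower. In HN4/DDP, 6 of the 25 probes were lower and 1, the RPS3 probe, was higher, against 19.5% and 10.1% of all RefSeq probes in the range. Of those 25 probes 5 belong to RPL21, so they do not stand for as many genes.

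**Figure D3:**
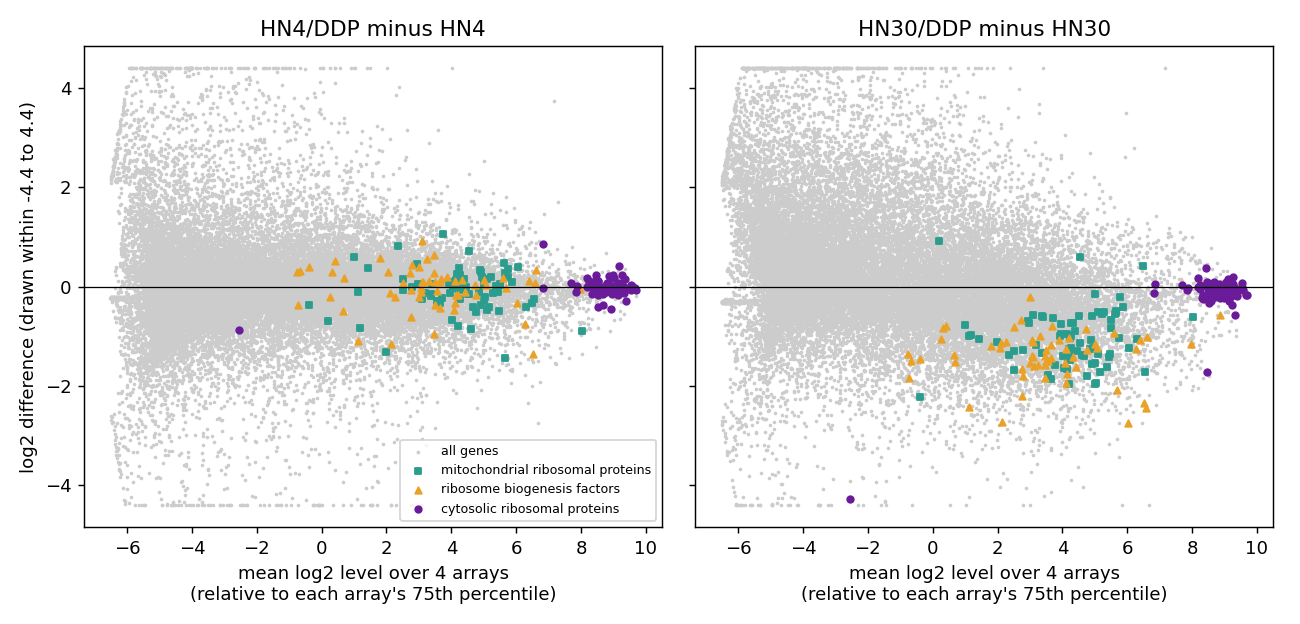
Log2 difference (vertical axis, drawn within -4.4 to 4.4) against the mean log2 level over the arrays (horizontal axis) for all genes tested in grey and for the ribosomal gene groups in colour. In HN30/DDP the mitochondrial ribosomal proteins (median -1.08) and biogenesis factors (median -1.36) lie for the most part below 0. Most cytosolic ribosomal proteins (median -0.08) lie near 0 at the bright end. RPS26 lies at -1.72, and RPL27A, whose resistant spot was not well above background, at -4.27 at the dim end.

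Of the 34 initiation factors, 22 were lower and 3 higher in HN30/DDP, with a median of -0.84 that ran from -1.25 to -0.39 over the settings tried. Of genes of like brightness, 47.8% were lower. EIF4G2 had levels of 6.66 in HN30 and 4.18 in HN30/DDP, and EIF4B, a helper of the RNA helicase EIF4A, had 4.51 and 5.52. Of the 10 elongation and termination factors, 5 were lower and 2 higher, with a median of -0.70 that ran from -1.11 to -0.31. That share is no larger than the 50.3% lower among genes of like brightness. The 20 genes known for TOP mRNAs that are not named as ribosomal proteins, translation factors for the most part, had a median of 0.01, with 3 lower and 4 higher, and that median ran from -0.40 to 0.43 over the settings tried. EEF1A1, which brings aminoacyl-tRNA to the ribosome, differed by -0.09 in HN30/DDP, and EEF2, which moves the ribosome along the mRNA, by 0.83. Several genes stand on more than 1 of these lists. Genes of the brightness of the TOP list had a median of -0.55, with 52.2% lower. The importins and dedicated chaperones of ribosomal proteins had 7 lower and 1 higher of 11, with a median of -0.69, against 41.4% lower among genes of like brightness. Among them TSR2, the chaperone that hands over RPS26, differed by -0.96 in HN30/DDP and by 0.09 in HN4/DDP. Of 16 genes of the TOR pathway and its TOP repressors, 8 were lower and 1 higher in HN30/DDP, close to the 45.0% lower among genes of like brightness, and LARP1, which binds the TOP tract, differed by -0.61.

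**Figure D4:**
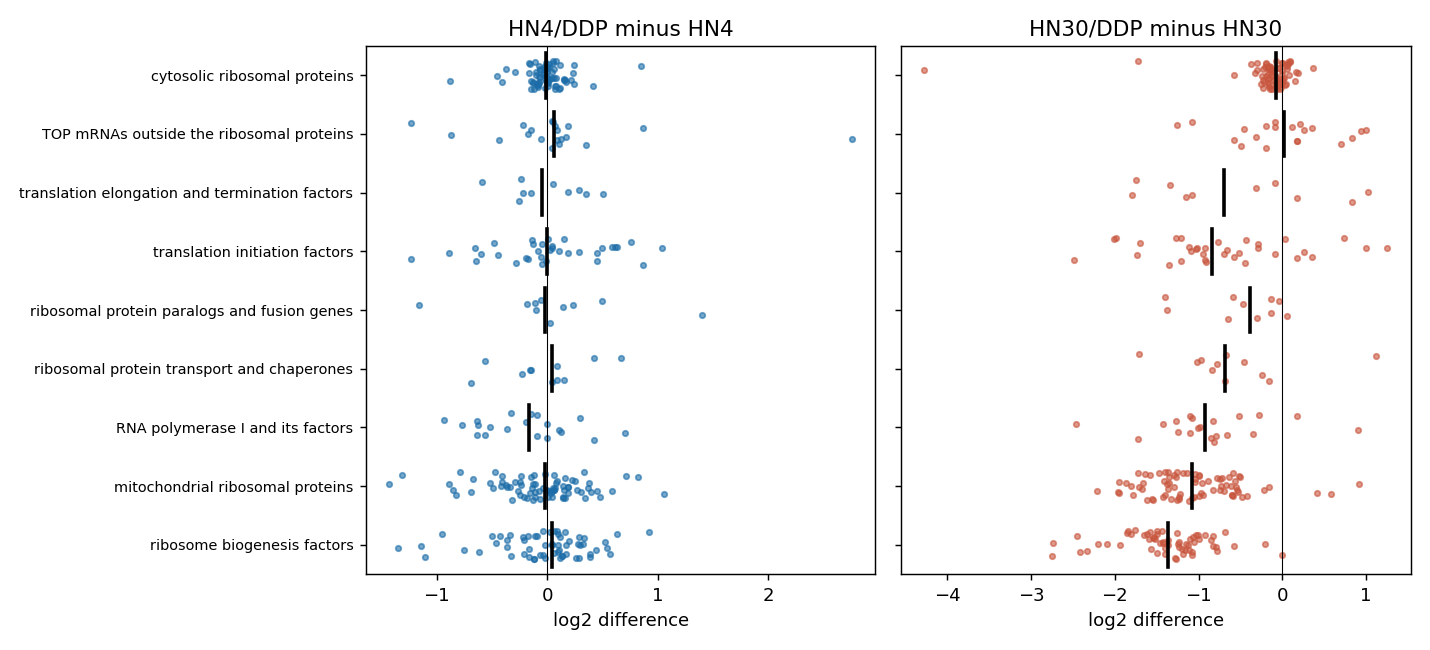
Log2 differences (horizontal axis) of single genes, as points, in 9 gene groups (rows), with HN4/DDP on the left and HN30/DDP on the right and black bars for the medians. The lowest point of the cytosolic ribosomal proteins in HN30/DDP is RPL27A, whose resistant spot was not well above background. In HN30/DDP the cytosolic ribosomal proteins (median -0.08) and the other TOP mRNAs (median 0.01) lie near 0 with this scaling, which moves both, and the other groups have medians between -1.36 and -0.39.

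Many members have the pyrimidine tract at the start of their mRNAs, which their choice by name did not use. The TOP list was made of genes known for such mRNAs, so its share below follows from that choice. Promoter sequences from RefSeq (GRCh38.p14, 250 bases before to 50 after the start) were given for 60 of the 75 members. A tract, searched on the transcribed strand as a C at the first transcribed base followed by at least 4 letters C or T, was found in 44 of the 60 (73.3%), against 5.14% of 27305 genes with a promoter. It was found in 8.82% of the mitochondrial ribosomal proteins, 11.8% of the biogenesis factors and 76.9% of the TOP list. The sequences below run from 10 bases before the start to the 20th base of the transcript, with the tract in capitals, and are shown for the 4 members past the threshold, for 6 more members described here, for 2 paralogs and for 1 gene each of the biogenesis and mitochondrial lists.
RPL21, chr13:27251548-27251577, plus strand: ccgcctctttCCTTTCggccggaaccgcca
RPS3, chr11:75399508-75399537, plus strand: cgagccacttCCTTTCCTTTCagcggagcg
RPS13, chr11:17077648-17077677, minus strand: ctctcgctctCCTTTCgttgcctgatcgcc
RPL28, chr19:55385922-55385951, plus strand: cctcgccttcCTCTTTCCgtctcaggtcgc
RPL27A, chr11:8682782-8682811, plus strand: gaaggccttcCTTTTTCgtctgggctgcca
RPLP2, chr11:809957-809986, plus strand: tcggcgccttCCTTTTCCTCCCTgtcgcca
RPL6, chr12:112409266-112409295, minus strand: gacggcgcgtgcactgtgttcctggtcctg
RPL35, chr9:124861938-124861967, minus strand: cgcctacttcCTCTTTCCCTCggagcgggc
RPS26, chr12:56041908-56041937, plus strand: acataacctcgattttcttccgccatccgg
RPS7, chr2:3575250-3575279, plus strand: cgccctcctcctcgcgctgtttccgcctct
RPL22L1, chr3:170870176-170870205, minus strand: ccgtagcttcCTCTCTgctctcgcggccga
RPS27L, chr15:63157458-63157487, minus strand: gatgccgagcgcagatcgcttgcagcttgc
NOP56, chr20:2652622-2652651, plus strand: cgctagccgcattgcgagccgaacccggga
MRPL12, chr17:81703357-81703386, plus strand: cggctagagcgtcatttccggctcgaatgc
RPS26, RPL6 and RPS7 have no tract at the start that RefSeq gives, so of the 3 members lower in HN30/DDP only RPL27A has one. A start that is off by a few bases hides a tract, so its absence says nothing of the mRNA in these cells. Members with and without a tract had medians of -0.10 (44 genes) and -0.06 (16 genes) in HN30/DDP and of -0.01 and -0.01 in HN4/DDP. The binding motif of ETS factors, CCGGAAG on either strand, was found in 35.0% of the members' promoters, in 42.6% of those of mitochondrial ribosomal proteins, in 43.1% of those of biogenesis factors and in 12.2% of all.

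The stalk proteins, which recruit the elongation factors, differed by less than the threshold. RPLP0 had levels of 9.36, 9.34, 9.39 and 9.27 and RPLP1 of 9.20, 9.11, 9.27 and 9.12 on the arrays HN4, HN4/DDP, HN30, HN30/DDP. RPLP2 had 9.14, 9.37, 9.18 and 9.36, and was the only stalk gene above 0 in both lines, by 0.23 in HN4/DDP and 0.18 in HN30/DDP. Those differences are close to the scanner SD, and the value of HN30/DDP turned to -0.23 with median scaling. The highest members of HN30/DDP were RPL28 (0.36), RPLP2, RPL18 (0.16), RPL13A (0.15) and RPL26 (0.09). RPS15A, with 0.24 in HN4/DDP and 0.09 in HN30/DDP, was above 0 on both. With median scaling 0 members were above 0 in HN30/DDP.

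RPL5, RPL11, RPL23 and RPL26, which bind MDM2 as RPS7 does, stayed within the threshold in both lines. Not all members that bind MDM2 are named here, so these values do not describe that group. RPL5 had levels of 8.90, 8.89, 8.95 and 8.94, and RPL11 had 8.66, 8.65, 8.86 and 8.64 in the same order of arrays. The differences of RPL5 were -0.01 in each line, and those of RPL11 were -0.0047 in HN4/DDP and -0.22 in HN30/DDP, the latter just past its scanner SD. RPL23 differed by 0.08 and -0.04 and RPL26 by -0.01 and 0.09. MDM2 itself differed by 0.02 and -0.07, while CDKN1A, an inhibitor of the cell cycle, was higher by 3.58 in HN4/DDP and 2.50 in HN30/DDP. Apart from RPS3, the other members chosen for known roles stayed within the threshold as well. RPS6, the substrate of the S6 kinases, differed by -0.12 and -0.13, RPL13A, a regulator of inflammatory mRNAs, by -0.01 and 0.15, and RPS19, mutated in Diamond-Blackfan anaemia, by 0.06 and 0.06. RPS27A, made as a fusion with ubiquitin, differed by -0.02 and -0.23 and RPS4X, encoded on the X chromosome, by 0.02 and -0.25, and both values of HN30/DDP were past the scanner SD. RPL39 at the exit tunnel differed by 0.11 and -0.03, and the very short RPL41 by 0.16 and -0.19.

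The naming rule leaves out paralogs and fusion genes. Of 10 such genes, 1 was higher and 1 lower in HN4/DDP, where 11.4% and 19.45% of genes of like brightness were. In HN30/DDP 4 were lower, against 47.7% of genes of like brightness, so these counts do not set them apart. RPS27L, the paralog of RPS27, had levels of 4.83 and 6.23 in the HN4 pair and 5.37 and 4.78 in the HN30 pair. Its differences were 1.40 and -0.59, so the lines went opposite ways. RPS27 itself differed by -0.08 and 0.07. RPL22L1, the paralog of RPL22, had 7.39, 6.23, 6.98 and 6.94 in the same order, so that HN4/DDP was the low array, with a difference of -1.16 against -0.03 for RPL22. RPL26L1 was lower in HN30/DDP by -1.40, where RPL26 differed by 0.09, and RPL7L1 by -1.38, where RPL7 differed by -0.32. RPL39L, a paralog best known from testis, differed by 0.49 and -0.65. FAU, fused to a ubiquitin-like protein, differed by 0.14 and -0.30. RPL36AL differed by -0.11 and -0.13 and RPL10L by 0.23 and -0.13, and RPL3L was dim, with levels from -3.30 to -3.12, though well above background on every array.

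The parental lines differed slightly in these genes. The median of HN30 minus HN4 was 0.12 over the members, against 0.06 over the like-bright genes, and 67 of the 75 members were above 0, as were 63 of the 106 like-bright genes and 13518 of all 25891 genes. The range was -0.26 (RPL21) to 0.35 (RPS15A), and 0 members passed 0.5. This comparison also rests on 1 array per line, and it was not run under the other scalings.

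The differences of the members were also set beside those of the genes around them. For each member the median difference was taken over all other genes within 5 Mb on either side (hg19) that were well above background on both arrays. Across the members it correlated with the member's own difference with r = 0.31 (Spearman's rho = 0.26, n = 75) in HN4/DDP. Without RPL27A, which differed by -0.88 among neighbours with the highest median, 0.299, the values were r = 0.53 and rho = 0.31 (n = 74), so the size of r rests on that gene. In HN30/DDP, where RPL27A gives only a bound and was left out, they were r = 0.26 and rho = 0.40 (n = 74). Genes share arrays and neighbours and are not independent, so no test is given. In HN4/DDP the neighbours of RPL21 had a median of -0.41 (70 genes), those of RPS13 0.26 (64 genes) and those of RPS3 0.19 (134 genes). RPL7, RPL30 and RPS20, which lie far apart on chromosome 8, differed by -0.41, -0.37 and -0.30, and their neighbours had medians of -0.26, -0.45 and -0.54. RPL37A and RPL37 also had low neighbours, at -0.39 and -0.32, but differed by 0.05 and -0.10 themselves. RPL8, the fourth member on chromosome 8, differed by -0.09, and its neighbours had a median of -0.14. The copy number of these regions was not measured. RPS7 differed by 0.24 in HN4/DDP, where its neighbours had a median of -0.15, and RPS26 and RPL6 were lower in HN30/DDP beside neighbours at -0.11 and -0.07.

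**Figure D5:**
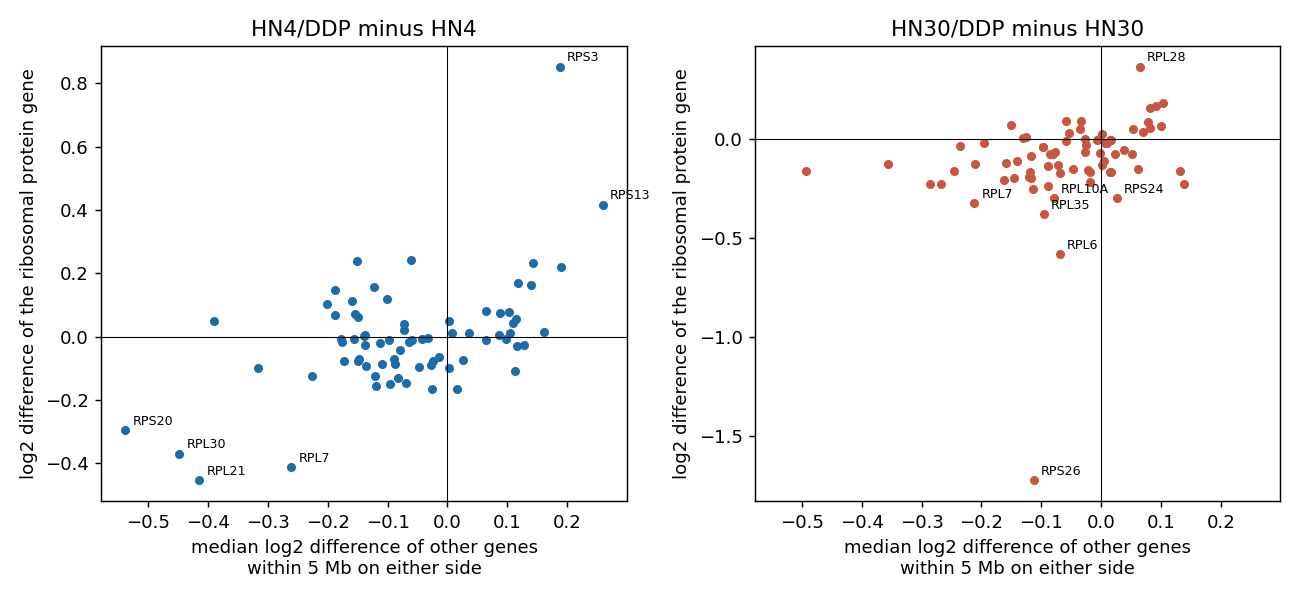
Log2 difference of each ribosomal protein gene except RPL27A (vertical axis) against the median log2 difference of the other genes within 5 Mb on either side (horizontal axis), with HN4/DDP on the left and HN30/DDP on the right. In HN4/DDP RPL21, RPL30, RPL7 and RPS20 lie low with their neighbours (-0.54 to -0.26), and RPS13 and RPS3 high with theirs, but RPL37A and RPL37 lie near 0 (0.05 and -0.10) with neighbours at -0.39 and -0.32. RPS26 in HN30/DDP lies at -1.72 with neighbours at -0.11.

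A last set of probes carries the members' names but lay more than 5 log2 units below the gene's brightest probe. Several of them are listed for a single transcript variant. There were 18 of them for 16 genes, and 16 could be counted in each comparison. In HN4/DDP 3 were higher and 5 lower, where 19.6% of all probes were higher and 22.3% lower. In HN30/DDP 5 were higher and 8 lower, against 32.8% and 26.4% of all probes. The dim probe of RPS29, the zinc-binding small subunit protein, had levels of 1.99 and 1.65 in the HN4 pair and 0.26 and 4.0 in the HN30 pair, so that HN30/DDP was the high array. The bright probe of RPS29 differed there by 0.002.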

How the data were processed

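Total RNA of 4 samples, HN4, HN4/DDP, HN30 and HN30/DDP, was hybridised to 1 one-colour (Cy3) Agilent array each, on 1 slide. The authors deposited the processed intensity of every spot, with its error, from Agilent Feature Extraction 10.7.1.1, background-subtracted but not normalized between arrays, with probes on hg19. A second deposited table by the authors holds log2 values whose quantiles are the same on every array; no source used here gives its normalization. The flags deposited with the spots mark outliers, which were left out, and signals well above background. Log2 intensities minus each array's 75th percentile were averaged by probe (Python 3.11.15, pandas 2.3.3). The number of arrays limits the precision.

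Each line was on 1 array, so differences within a pair are untested. Resistant against parental over both lines was run in limma 3.58.1 under R 4.3.3 with a mean trend in eBayes. The counting steps and the fit were tested on simulated data. The members, gene lists and tests were chosen with earlier results of these data known. Named genes were those lower or higher in both lines, the 5 largest rises and falls per line, and 18 genes with known roles, of which 16 were on the arrays, plus 10 paralogs. Genes named from other lists were chosen after their values were seen. Alternatives were other background corrections, scalings, thresholds, probe choices and the deposited log2 values. The least bright probe, the members without RPL27A, and the alternatives of the gene lists were chosen after seeing the data. Some genes are not reported here by name.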

Additional observations from a re-analysis of the deposited data

Results flagged for a closer look

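RPS13 and RPS7 went opposite ways in the resistant lines by more than the scanner SD in each. RPS13 differed by 0.42 in HN4/DDP against -0.21 in HN30/DDP, and RPS7 by 0.24 against -0.24. In HN30/DDP both turned positive with the percentile over probes measured on every array (0.06 and 0.03) and with the brightness trend taken off (0.07 and 0.06). The paralogs RPS27L (1.40 and -0.59) and RPL39L (0.49 and -0.65) also went opposite ways. These differences between the lines were not tested, since each line has 1 array.

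Among the dim probes of the members, which entered the counts of members only where the probes of a gene were averaged, 4 differed by more than 2. In HN30/DDP the probe of RPS29 was higher by 3.74, that of RPS21 by 3.31 and that of RPL28 by 2.44, while the bright probes of these genes differed by 0.002, -0.17 and 0.36. Another RPL28 probe was lower by -3.35 in HN4/DDP, but it was well above background on HN4 alone, so that value is no measured size. The first 30 bases of the probes are given for those higher in HN30/DDP (hg19). The RPL28 probe also lists other RPL28 transcripts, so it does not stand for 1 variant.
RPS29, chr14:50044074-50044133: ctgcacagtgcagaaagtgaatagacagtg
RPS21, chr20:60963037-60963096: tgtgtgatggtgcctgagtagatctgctgg
RPL28, chr19:55903389-55903448: gaatggtatcaattcccctgtttctcttgt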

How the results depend on the processing

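Each group has 1 array, so no replicate was left out. Parental and resistant arrays were paired by line in the limma fit, where 0 members passed the adjusted threshold. Of the medians of the ribosomal proteins 38 of 42, of those of the other lists 66 of 96, of the counts 48 of 72 and of the named genes 454 of 578 moved by less than the spread allowed, and 0 changed a called sign. The cause of the changes below was not tested.

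The members' median in HN30/DDP was -0.49 with median scaling, 0.19 with the percentile over probes measured on every array and 0.20 with the brightness trend taken off. It exceeded that of like-bright genes by 0.45 where the probes of a gene were averaged. Higher members in HN4/DDP numbered 2 after quantile normalization, with the trend off, in the deposited values and at a threshold of 0.25, and 0 at a threshold of 1. Lower members there numbered 6 with the mean of the probes, 4 with the least bright probe, 5 at 0.25, and 0 without RPL27A or at 1. Higher members in HN30/DDP numbered 1 with the percentile over probes measured on every array, after quantile normalization and at 0.25, 2 with the trend off and in the deposited values, and 4 with the mean of the probes. Lower members there numbered 36 with median scaling and 8 with the mean of the probes or at 0.25. In both lines 1 was higher in the deposited values, and 3 were lower with the mean of the probes, 2 at 0.25 and 0 without RPL27A or at 1.

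The list medians in HN30/DDP, in the order median scaling, percentile over probes measured on every array, quantile normalization, trend off and deposited values, were -1.50, -0.82, -0.71, -0.73 and -0.72 for mitochondrial ribosomal proteins. In that order they were -1.77, -1.10, -0.997, -0.94 and -0.996 for biogenesis factors and -1.33, -0.66, -0.60, -0.58 and -0.60 for RNA polymerase I. Initiation factors had -1.25, -0.57, -0.39, -0.46 and -0.39, elongation and termination factors -1.11, -0.43, -0.35, -0.31 and -0.34, and the TOP list -0.40, 0.28, 0.36, 0.43 and 0.38.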
